A study of Arabidopsis thaliana with 25 samples.

Results

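The 44 nuclear genes described here encode the antenna proteins, the photosystem subunits, the mobile electron carriers and the ATP synthase subunits of the Arabidopsis thylakoid. They were chosen by name and locus from the known protein families of the light reactions, and all 44 were found among the 27444 protein-coding nuclear genes of the RefSeq gene table. Their grouping was 4 photosystem I antenna genes, 9 major photosystem II antenna genes, 4 minor antenna genes with PSBS, 6 photosystem II subunit genes, 11 photosystem I subunit genes, 7 electron transport genes and 2 ATP synthase genes. The data come from chromatin immunoprecipitation followed by sequencing (ChIP-seq) in whole Col-0 seedlings, with antibodies to SPT5, ELF7, SSRP1 or SPT16, or to RNA polymerase II (RNAPII) phosphorylated on serine 2 (S2P) or serine 5 (S5P) of its carboxy-terminal domain. Of the 25 samples, each factor had 4 ChIP libraries, each phosphorylated form of RNAPII had 2, and 5 were inputs. All seedlings shared the Col-0 background and a cycle of 16 h of light at 21 °C and 8 h of darkness at 18 °C. A heat step of 44 °C for 10 min is written under every sample, but no label says which samples were heated, so the groups could not be separated by heat.

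Light captured by the antenna proteins LHCA and LHCB is passed to the reaction centres of photosystem I and photosystem II. Photosystem II takes electrons from water, the cytochrome b6f complex and plastocyanin carry them to photosystem I, and ferredoxin and ferredoxin-NADP reductase deliver them to NADPH, while ATP synthase uses the proton gradient. In plants the peripheral and extrinsic subunits of these complexes are encoded in the nucleus, and many are among the most strongly transcribed genes of green tissue. SPT5 travels with elongating RNAPII, ELF7 belongs to the PAF1 complex, and FACT is a histone chaperone made of SSRP1 and SPT16, which loosens and restores nucleosomes in front of and behind RNAPII. Serine 5 phosphorylation is typical of early elongation and serine 2 phosphorylation of later elongation.

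The deposited data are 8 lists of summits, the single bases at which a peak of a factor over an RNAPII form was highest, with 298 to 7394 summits each. A gene was counted in a list where a summit lay inside it or within 500 bp of it. Each summit carries the authors' score, the −log10 of a q-value, and the lowest score in any list was 2.0. The lists' names give only a factor over an RNAPII form. The factor libraries were read as the signal and the RNAPII libraries as the background, which no file states. On that reading, a gene without a summit is one where the factor did not exceed that form of RNAPII by the authors' threshold. It is not a gene shown to lack the factor. No file analysed here gives the level of a factor, of RNAPII or of a transcript at a gene. No list has a column per library, so no count or score has a replicate error, sequencing depth is unknown, and no test between conditions was possible. Peak numbers were skipped at 53 places in the lists, which touched 2 of the 352 pairs of a gene and a list, LHCB2.1 and LHCB2.2 in SPT5 over S2P, and these were not analysed.

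FACT over the S2P form was the most frequent feature of the 44 genes. SSRP1 over S2P had a summit at 23 of 44 genes (52.3%, exact Clopper-Pearson 95% interval 36.7 to 67.5), against 19.1% of all protein-coding genes. SPT16 over S2P had one at 17 of 44 (38.6%, interval 24.4 to 54.5), against 21.0% of all genes, and ELF7 over S2P at 10 of 44 (22.7%, interval 11.5 to 37.8), against 8.54%. These intervals cover counting error only. The 3 lists share the same S2P libraries and are not independent of each other.

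The lists over S5P gave fewer of these genes. SSRP1 over S5P had a summit at 11 of 44 (25.0%, interval 13.2 to 40.3), against 14.4% of all genes, a share inside that interval. SPT16 over S5P had one at 8 of 44 (18.2%, interval 8.19 to 32.7), against 24.2% of all genes, and that share is near the background. ELF7 over S5P had none (0%, upper bound 8.04%), against 2.08%. SPT5, whose S5P list reached 15.6% of all genes, had a summit over S5P at 1 of the 44 (2.27%, interval 0.0575 to 12.0). SPT5 over S2P also had 1, of the 42 genes analysed in that list (2.38%), against 1.05% of all genes. Counted over any list, 23 of 44 genes had a summit (52.3%, interval 36.7 to 67.5), against 36.8% of all genes, a share just inside that interval.

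Most of these summits had modest scores. Counting only summits with a score of at least 5, SSRP1 over S2P kept 10 of 44 genes (22.7%, interval 11.5 to 37.8). The share of all genes, 13.6%, is inside that interval. ELF7 over S2P kept 3 (6.82%), against 3.85%, too few genes to be set apart from the background. SPT16 over S2P kept 7 (15.9%), against 14.0%, which is near the background. With a score of at least 10, SSRP1 over S2P kept 3 genes (6.82%), against 6.15%, also near the background. Neither SPT16 nor ELF7 over S2P then kept any of the 44, against 5.95% and 0.907% of all genes. The 44 genes are short, with a median length of 1386 bp, against 2078 bp over all genes. Among the 18695 protein-coding genes within the same range of lengths, 780 to 3207 bp, SSRP1 over S2P had a summit at 20.7%, SPT16 over S2P at 22.6% and ELF7 over S2P at 9.46%.

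The antenna genes and the other genes stood far apart, a division that was made after the values were seen. Of the 17 LHCA and LHCB genes, 1 had a summit in any list (5.88%, interval 0.149 to 28.7), and of the 27 other genes 22 did (81.5%, interval 61.9 to 93.7), against 36.8% of all genes. SSRP1 over S2P gave the same 1 antenna gene and 22 others, against 19.1% of all genes, a share inside the interval of the antenna genes. Among the 27 other genes, SPT16 over S2P had a summit at 17 (63.0%, against 21.0% of all genes) and ELF7 over S2P at 10 (37.0%, against 8.54%). At the 17 antenna genes both had none, with an upper bound of 19.5%. That bound lies below the share of all genes for SPT16 and holds that for ELF7, so ELF7 does not set the antenna genes apart from the background. Counting only scores of at least 5, 14 of the 27 others remained and none of the antenna genes, against 24.6% of all genes. Gene length differed little between the 2 sets, with medians of 1419 bp for the antenna genes and 1304 bp for the others.

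**Figure D1:**
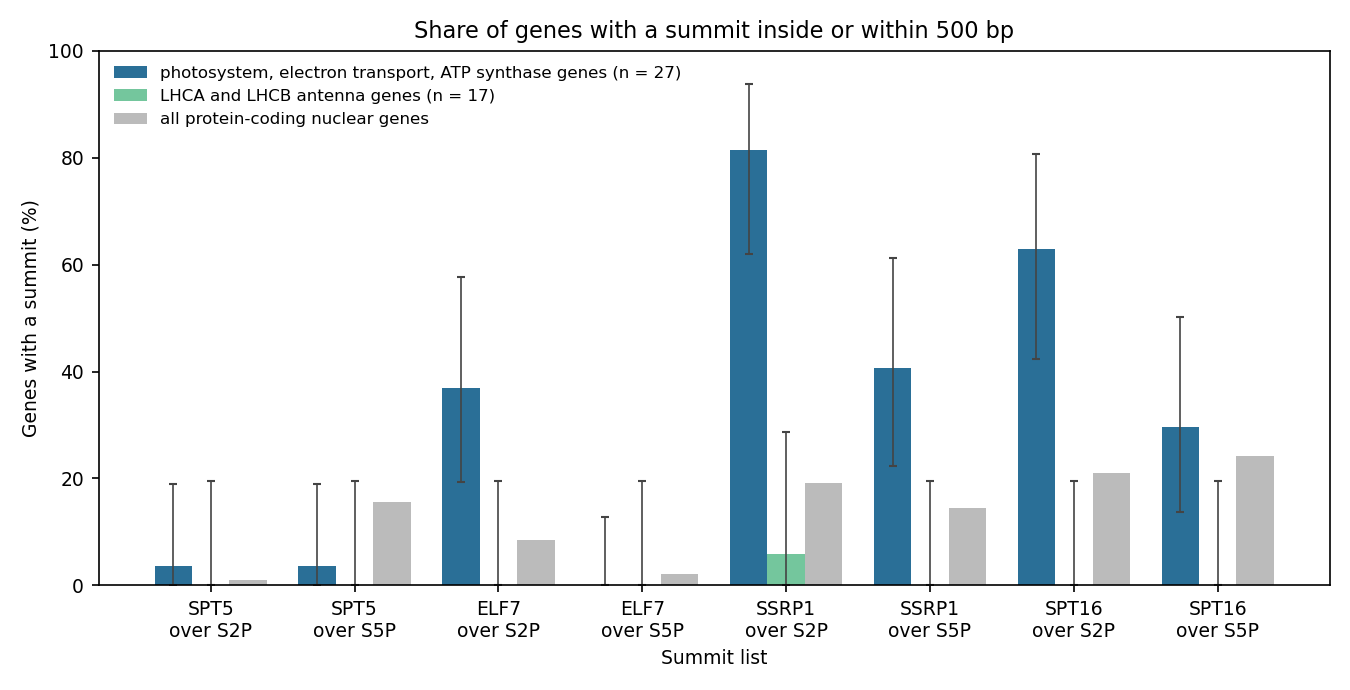
Share of genes with a summit (percent, bars) in each of the 8 lists, for the 27 genes other than LHCA and LHCB, the 17 LHCA and LHCB antenna genes and all protein-coding genes; error bars are exact 95% intervals of counting error. In SSRP1, SPT16 and ELF7 over S2P the 27 genes stood at 81.5%, 63.0% and 37.0%, against 19.1%, 21.0% and 8.54% of all genes, and the antenna genes reached 5.88% at most.

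The antenna genes without a summit were LHCA1 (AT3G54890), LHCA2 (AT3G61470), LHCA3 (AT1G61520) and LHCA4 (AT3G47470), which form the belt around photosystem I; LHCB1.1 to LHCB1.5, LHCB2.1 to LHCB2.3 and LHCB3, which form the trimeric major antenna LHCII; and LHCB4.2, LHCB5 and LHCB6, monomeric linkers between LHCII and the photosystem II core. The gene table lists LHCB1.1, LHCB1.2 and LHCB1.3 as CAB2, CAB3 and CAB1, and LHCB1.4 and LHCB1.5 as LHB1B1 and LHB1B2. LHCB1.1 to LHCB1.5 and LHCB2.1 with LHCB2.2 are near-identical copies, and the sources used here do not say how reads that match several copies were treated. LHCA1 to LHCA4, LHCB3, LHCB5 and LHCB6, which are not such copies, also had no summit. The part of read treatment in the missing summits was not tested for any of these genes. No summit lay just outside the window: the nearest one in any list was 2852 to 63118 bp from the 16 antenna genes, with a median of 8170 bp, against a median of 4759 bp over the 17353 protein-coding genes without a summit.

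The exception was LHCB4.1 (AT5G01530), a minor antenna protein also called CP29. Its SSRP1 summit over S2P lay inside the gene, at base 209385 of chromosome 5 in TAIR10, and scored 2.04, rank 5424 of the 5451 summits in that list. This was close to the lowest score a list could hold. LHCB4.1 had no summit in the other 7 lists.

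**Figure D2:**
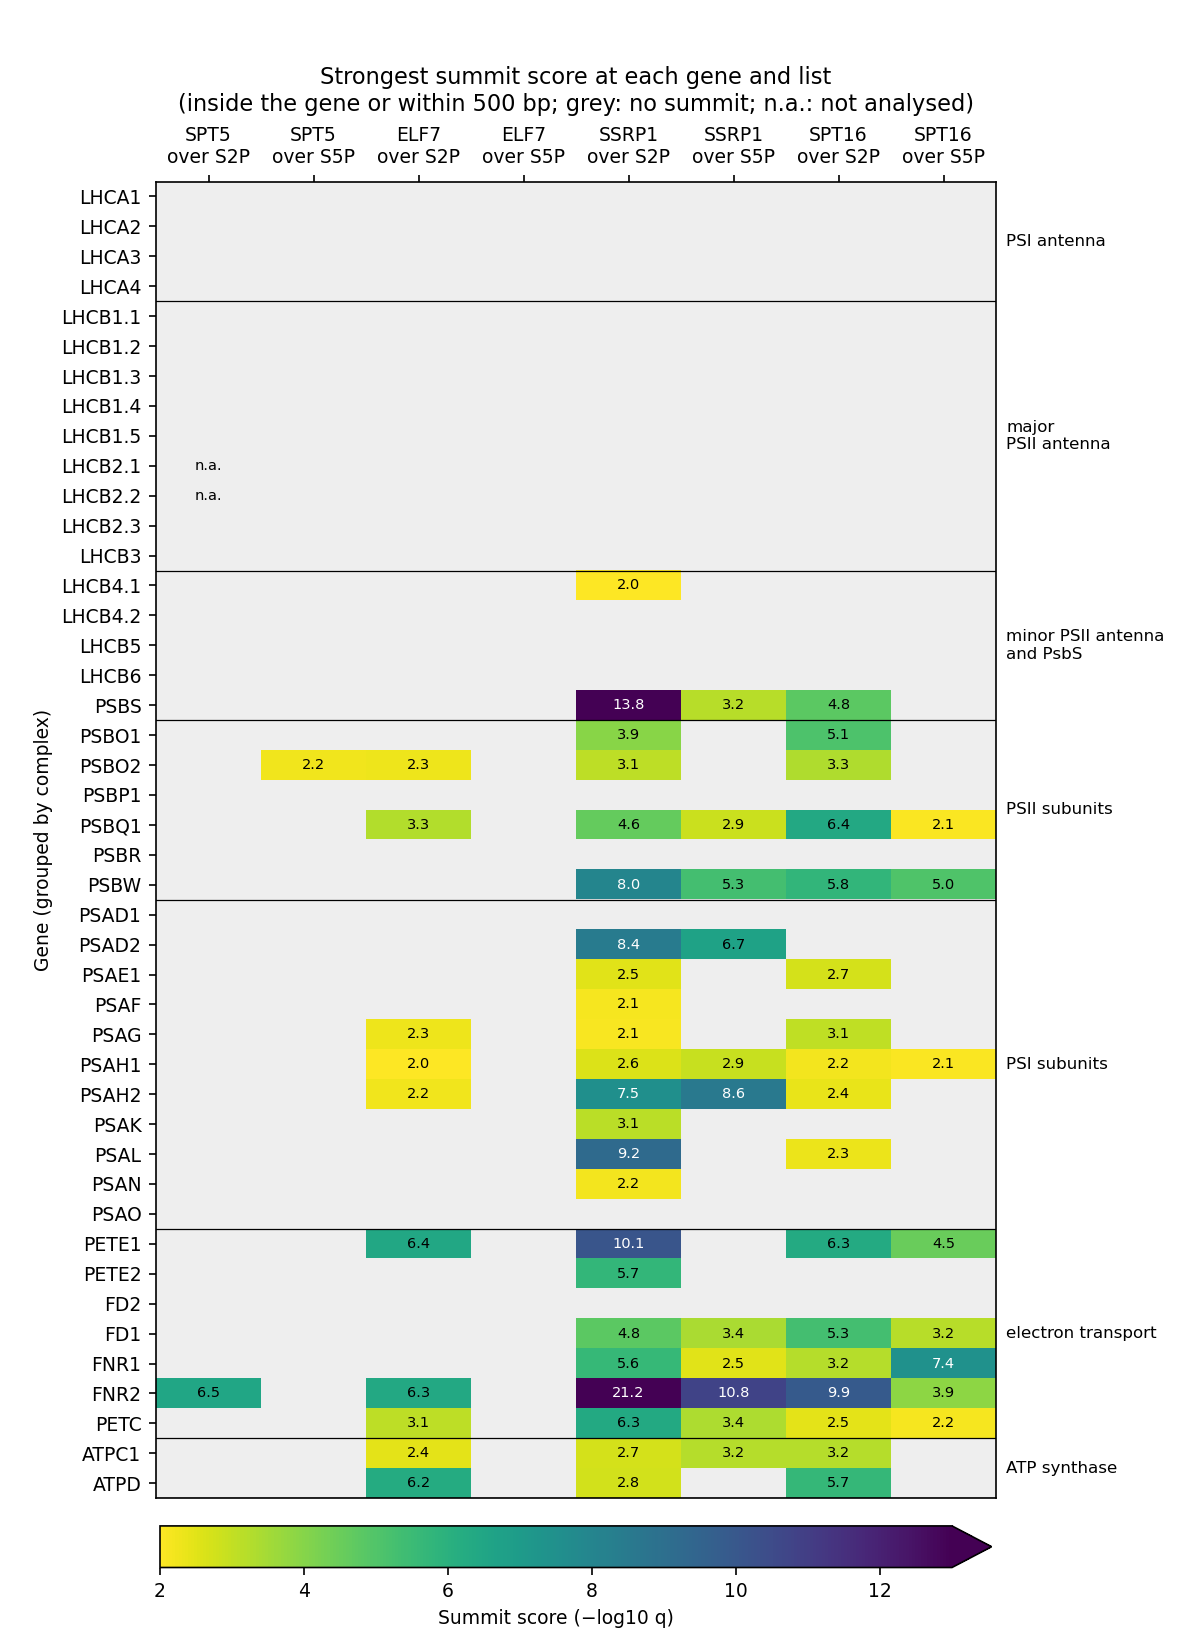
Score (−log10 q, colour and number) of the strongest summit at each of the 44 genes (rows, grouped by complex) in each of the 8 lists (columns); grey marks no summit and n.a. a pair not analysed. The rows of LHCA1 to LHCB3 are empty, whereas FNR2 has values in 6 lists, up to 21.2 in SSRP1 over S2P.

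PSBS (AT1G44575, NPQ4 in the gene table) belongs to the same protein superfamily but does not harvest light. It senses lumen pH and switches on the dissipation of excess light as heat. Unlike the antenna genes, PSBS had a high SSRP1 summit, with a score of 13.8 over S2P, rank 889 of 5451. SSRP1 over S5P peaked at the identical base, 16872018 of chromosome 1, with a score of 3.18, rank 3396 of 4199. SPT16 over S2P scored 4.76 at 16872290, rank 4074 of 6578, and SPT16 over S5P, ELF7 and SPT5 had no summit there. All 3 summits lay inside PSBS, which at 3207 bp is the longest of the 44 genes.

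Among the photosystem II subunits, 4 of 6 genes had SSRP1 and 4 of 6 had SPT16 over S2P (66.7% each, interval 22.3 to 95.7), against 19.1% and 21.0% of all genes. ELF7 over S2P was at 2 (33.3%, interval 4.33 to 77.7), against 8.54%, which that interval holds. PSBO1 (AT5G66570) and PSBO2 (AT3G50820) encode the PsbO protein that stabilises the manganese cluster of water oxidation. PSBO1 had SSRP1 over S2P with a score of 3.94 and SPT16 over S2P with a score of 5.08, and no summit in the other lists. PSBO2 had summits in 4 lists, all low: 2.26 for ELF7, 3.08 for SSRP1 and 3.30 for SPT16 over S2P, ranked 2514 of 2687, 4941 of 5451 and 5486 of 6578. The remaining summit, of SPT5 over S5P, scored 2.24, rank 2794 of 2916, and lay at base 18892763 of chromosome 3, 255 bp outside the gene. PSBO2 was the only one of the 44 genes that a factor marked over S5P and not over S2P, which for SPT5 held for 15.1% of all genes.

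PSBQ1 (AT4G21280, PSBQA in the gene table), which encodes another extrinsic protein of the water-oxidising complex, had summits in 5 lists, all inside the gene. Over S2P they scored 6.36 for SPT16, 4.61 for SSRP1 and 3.27 for ELF7, ranked 2968 of 6578, 3948 of 5451 and 1943 of 2687. Over S5P they scored 2.88 for SSRP1, rank 3615 of 4199, and 2.08 for SPT16, rank 7273 of 7394. The summits of PSBQ1 were tightly placed: ELF7 and SPT16 over S2P peaked at the same base, 11334893 of chromosome 4, SPT16 over S5P 5 bp away, SSRP1 over S5P 51 bp away and SSRP1 over S2P 146 bp away.

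PSBW (AT2G30570) encodes a small membrane subunit of photosystem II. SSRP1 peaked at base 13020579 of chromosome 2, with scores of 8.01 over S2P (rank 2155 of 5451) and 5.27 over S5P (rank 1862 of 4199), and SPT16 peaked 7 bp away with scores of 5.78 over S2P (rank 3308 of 6578) and 5.04 over S5P (rank 3357 of 7394). All 4 lay 268 to 275 bp outside PSBW and inside its neighbour LGT5, so they cannot be assigned to PSBW alone. PSBP1 (AT1G06680), another extrinsic protein of the water-oxidising complex, and PSBR (AT1G79040), a small subunit that helps to assemble it, had no summit in any list.

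Among the photosystem I subunits, 9 of 11 genes had SSRP1 over S2P (81.8%, against 19.1% of all genes). SPT16 over S2P was at 5 (45.5%, interval 16.7 to 76.6, against 21.0%) and ELF7 over S2P at 3 (27.3%, interval 6.02 to 61.0, against 8.54%), and both intervals hold the share of all genes. Over S5P, 3 of the 11 had SSRP1 (27.3%, against 14.4%, with the same interval) and 1 had SPT16 (9.09%, interval 0.230 to 41.3, against 24.2%), which are not set apart from the background. The highest SSRP1 score over S2P was at PSAL (AT4G12800), a subunit at the docking site of mobile LHCII, with 9.21, rank 1810 of 5451, and an SPT16 score over S2P of 2.34. PSAF (AT1G31330), which helps to bind plastocyanin, and the peripheral subunits PSAK (AT1G30380) and PSAN (AT5G64040) had SSRP1 over S2P alone, with scores of 2.15, 3.12 and 2.19. PSAE1 (AT4G28750), a subunit of the stromal face where ferredoxin docks, had SSRP1 and SPT16 over S2P with scores of 2.51 and 2.73. The SPT16 summit of PSAE1 also lay in the overlapping gene AT4G28755.

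PSAG (AT1G55670), a peripheral subunit, had 3 low summits over S2P, 2.28 for ELF7, 2.1 for SSRP1 and 3.06 for SPT16, and those of ELF7 and SPT16 also lay in the overlapping gene AT1G55673. PSAH1 (AT3G16140) and PSAH2 (AT1G52230) encode PsaH, another part of the docking site of LHCII. PSAH1 had summits in 5 lists, all with scores under 3: 2.01 for ELF7, 2.56 for SSRP1 and 2.2 for SPT16 over S2P, ranked 2680 of 2687, 5208 of 5451 and 6390 of 6578. Its S5P scores were 2.94 for SSRP1, rank 3582 of 4199, and 2.06 for SPT16, rank 7290 of 7394. All 5 lay inside PSAH1, and that of SSRP1 over S2P also lay in the overlapping gene ROPGEF13. PSAH1 thus combined summits in many lists with scores near the lowest.

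PSAH2 had its highest scores outside the gene. SSRP1 peaked at base 19454329 of chromosome 1 with scores of 7.5 over S2P (rank 2350 of 5451) and 8.57 over S5P (rank 648 of 4199), 469 bp from PSAH2 and inside its neighbour AT1G52220. Inside PSAH2 the summits were lower: 3.35 for SSRP1 over S2P, rank 4780 of 5451, 2.37 for SPT16 over S2P, rank 6267 of 6578, and 2.23 for ELF7 over S2P, rank 2525 of 2687. PSAD2 (AT1G03130) encodes PsaD, the docking subunit for ferredoxin, and its SSRP1 summits, 8.41 over S2P (rank 2038 of 5451) and 6.66 over S5P (rank 1184 of 4199), lay 406 and 405 bp outside it, inside AT1G03140. The other gene for PsaD, PSAD1 (AT4G02770), and PSAO (AT1G08380), a further peripheral subunit, had no summit.

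The highest score of the 44 genes was at an electron transport gene, and 6 of 7 of these genes had SSRP1 over S2P (85.7%). Over all genes that share was 19.1%. SPT16 had a summit at 5 of 7 over S2P and at 5 of 7 over S5P (71.4% each), against 21.0% and 24.2% of all genes. ELF7 over S2P was at 3 (42.9%, against 8.54%) and SSRP1 over S5P at 4 (57.1%, against 14.4%). FNR2 (AT1G20020), a leaf ferredoxin-NADP reductase, had summits in 6 of the 8 lists, more than any other of the 44 genes, and 3.05% of all genes were in 6 or more. In 4 or more lists were 11 of the 44 genes (25.0%, interval 13.2 to 40.3), against 13.4% of all genes, a share just inside that interval. PSBO2, PSBW, PSAH2 and PETE1 reached 4 lists only with summits outside the gene. In 5 or more lists were 4 genes (9.09%), against 7.63%, which is near the background. The SSRP1 summit of FNR2 over S2P scored 21.2, rank 278 of 5451, at base 6943333 of chromosome 1. That over S5P scored 10.8, rank 330 of 4199, at a base 2 bp away.

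SPT16 at FNR2 scored 9.88 over S2P, rank 1576 of 6578, and 3.89 over S5P, rank 4805 of 7394, both at base 6944120, 787 bp from the SSRP1 summit over S2P. ELF7 over S2P had summits at 6943417 and 6944070 with scores of 6.35, rank 659 of 2687, and 2.53, rank 2372 of 2687. SPT5 over S2P peaked at 6943125 with a score of 6.51, rank 30 of 298. FNR2 was the only one of the 44 genes with SPT5 over S2P, and all of its summits lay inside the gene. SPT5, SSRP1 and the stronger ELF7 summit lay together at lower coordinates, and SPT16 and the weaker ELF7 summit lay together at higher ones. The gene's direction was not used here.

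FNR1 (AT5G66190), the other leaf ferredoxin-NADP reductase, was in 4 lists, with 6 summits spread inside the gene. Over S2P, SSRP1 scored 5.64, rank 3256 of 5451, and 2.97, rank 5017 of 5451, and SPT16 scored 3.21, rank 5565 of 6578. Over S5P, SSRP1 scored 2.48, rank 3864 of 4199, and SPT16 scored 7.43, rank 1473 of 7394, and 3.45, rank 5480 of 7394. The SPT16 score of 7.43 was the highest of the 44 genes in SPT16 over S5P. The strongest SPT16 summit over S5P lay 31 bp from the SSRP1 summit over S5P, and the strongest summits over S2P of these 2 FACT subunits lay 805 bp apart.

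PETE1 (AT1G76100) encodes a plastocyanin, the copper protein that carries electrons to photosystem I. It had summits over S2P of SSRP1 with a score of 10.1, rank 1569 of 5451, of ELF7 with a score of 6.42, rank 647 of 2687, and of SPT16 with a score of 6.26, rank 3010 of 6578. These 3 lay within 67 bp of each other, and the ELF7 score was the highest of the 44 genes in ELF7 over S2P. SPT16 also peaked 339 bp outside PETE1, at base 28553544 of chromosome 1, with scores of 4.08 over S2P, rank 4722 of 6578, and 4.51 over S5P, rank 3950 of 7394. That base lay 1490 bp from the nearest other gene, so these summits and the SPT5 summit of PSBO2 were the only ones outside a member gene that were not inside a neighbour.

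The other plastocyanin gene, PETE2 (AT1G20340, DRT112 in the gene table), had SSRP1 over S2P alone, with a score of 5.71. FD1 (AT1G10960) and FD2 (AT1G60950, FED A in the gene table) encode the leaf ferredoxins that accept electrons from photosystem I. FD1 was in 4 lists: SSRP1 at base 3664621 of chromosome 1 with scores of 4.79 over S2P (rank 3789 of 5451) and 3.39 over S5P (rank 3215 of 4199), and SPT16 410 bp away with scores of 5.27 over S2P (rank 3655 of 6578) and 3.18 over S5P (rank 5873 of 7394). The SPT16 summits lay 9 bp inside the gene's end and 56 bp from the neighbour ZIP4. FD2, known as the more abundant leaf ferredoxin, had no summit in any list.

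PETC (AT4G03280) encodes the Rieske iron-sulphur protein of the cytochrome b6f complex and was in 5 lists, with every summit inside the gene. Over S2P, SSRP1 scored 6.33, rank 2899 of 5451, ELF7 scored 3.10, rank 2064 of 2687, and SPT16 scored 2.45, rank 6218 of 6578. Over S5P, SSRP1 scored 3.37, rank 3234 of 4199, and SPT16 scored 2.17, rank 7151 of 7394. Summits of the same FACT subunit over the 2 forms were 332 bp apart for SSRP1 and 328 bp apart for SPT16, so PETC did not share the same-base summits seen in FD1 and FNR2.

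The 2 ATP synthase genes among the 44, ATPC1 (AT4G04640) for the gamma subunit and ATPD (AT4G09650) for the delta subunit, had ELF7, SSRP1 and SPT16 over S2P. ATPC1 scored 2.43 for ELF7 (rank 2418 of 2687), 2.72 for SSRP1 (rank 5139 of 5451) and 3.23 for SPT16 (rank 5551 of 6578) over S2P, and 3.22 for SSRP1 over S5P (rank 3375 of 4199). ATPD scored 6.23 for ELF7, rank 680 of 2687, 5.69 for SPT16, rank 3358 of 6578, and 2.77 for SSRP1, rank 5117 of 5451. ATPD stood with PETE1 and FNR2 as the 3 highest of the 44 genes in ELF7 over S2P, and its ELF7 and SPT16 summits were 55 bp apart.

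**Figure D3:**
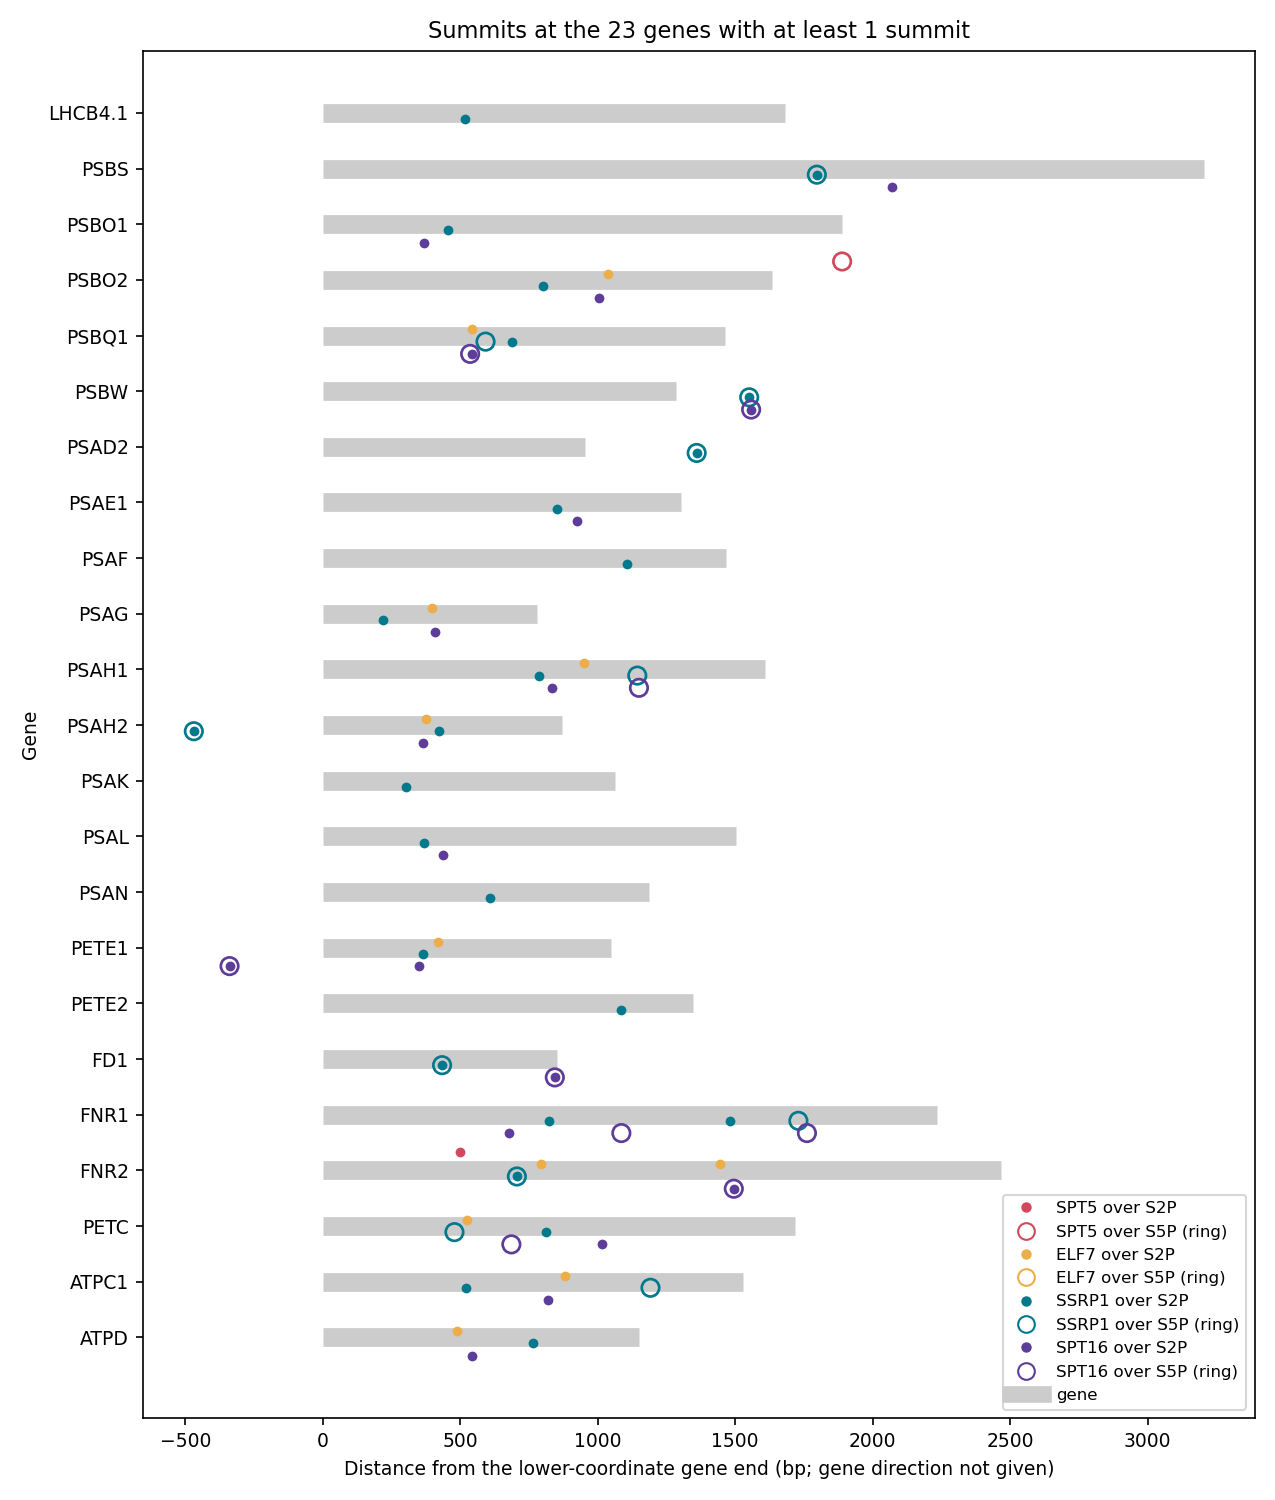
Place of every summit at the 23 genes with a summit, in bp from the gene end of lower coordinate, with genes as grey bars; small filled points are summits over S2P, open rings summits over S5P and colours the factors. A point inside a ring marks summits over both forms at or next to the same base, as at PSBS, FD1 and FNR2, and the summits of PSBW and PSAD2 lie outside the gene.

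Set against each other, the forms of RNAPII gave unequal counts for the same factor at these genes. For SSRP1, 11 genes had a summit over both forms (12.6% of all genes did), 12 over S2P and not S5P (6.44%) and none over S5P and not S2P (1.80%). Of the genes with SSRP1 over S2P, 47.8% also had it over S5P, against 66.3% over all genes. For SPT16, 8 genes had both (16.3% of all genes), 9 had S2P and not S5P (4.77%) and none had S5P and not S2P (7.95%), and 47.1% of its S2P genes also had S5P, against 77.3% over all genes. For ELF7, all 10 genes with a summit had it over S2P and not S5P (6.57% of all genes), and none had both (1.97%) or S5P alone (0.102%). Over all genes 23.1% of the ELF7 genes over S2P also had a summit over S5P. For SPT5, no gene had both forms (0.521% of all genes), FNR2 had S2P and not S5P (0.528%) and PSBO2 the opposite (15.1%). A count of 0 of 44 has an upper bound of 8.04%, which holds the shares of all genes over S5P and not S2P for SSRP1, SPT16 and ELF7. Those counts of none do not set these genes apart. The shares among genes with a summit over S2P rest on 23 (SSRP1), 17 (SPT16) and 10 (ELF7) genes, with no interval or test. Both lists of a factor share that factor's libraries.

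Within 500 bp, the order of the forms for SPT16 was the reverse of that over all genes. Here 17 genes had it over S2P and 8 over S5P, where over all genes 5770 had it over S2P and 6642 over S5P. This depended on the setting, and windows of 250 and 1000 bp kept it. With summits inside genes alone, all genes followed the same order as these genes, at 18.9% over S2P and 17.3% over S5P. They also did with scores of at least 5, at 14.0% and 12.9%. The subgroups differed in SPT16 over the 2 forms. The 5 electron transport genes with SPT16 over S2P all had it over S5P too (100%). Of the 5 photosystem I genes with SPT16 over S2P, PSAH1 alone did (20.0%). Over all genes with SPT16 over S2P that share was 77.3%, and these counts are small, with no interval or test. At PETE1 and FNR1 the strongest SPT16 summits over the 2 forms lay 690 and 1084 bp apart, and that of PETE1 over S5P lay outside the gene. No antenna gene had SPT16 over either form (upper bound 19.5%), against 21.0% of all genes over S2P and 24.2% over S5P. With scores of at least 5 the count over S5P and not S2P was 1 for SPT16, because FNR1 scored 7.43 over S5P and 3.21 over S2P.

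Where a factor marked a gene over both forms, the 2 strongest summits coincided at a smaller share of these genes than of all genes with both. These shares rest on 11 genes (SSRP1) and 8 genes (SPT16), with no interval or test, and do not set these genes apart. For SSRP1 they were within 250 bp at 8 of 11 genes (72.7%, against 86.7% of all genes with both), and at the same base at 4, PSBS, PSBW, PSAH2 and FD1 (36.4%, against 64.8%). For SPT16 they were within 250 bp at 4 of 8 genes (50.0%, against 70.8%), and at the same base at 3, PSBW, FD1 and FNR2 (37.5%, against 52.4%). Lists that differ in both the factor and the RNAPII form share no ChIP library on the reading used here, which no file states. Between such lists, the strongest summits of SSRP1 over S2P and SPT16 over S5P lay within 250 bp at 3 of 8 genes (37.5%, against 61.6%). Those of SSRP1 over S5P and SPT16 over S2P did so at 2 of 10 (20.0%, against 69.6%). Those of ELF7 over S2P and SSRP1 over S5P lay within 250 bp at 4 of 6 genes (66.7%, against 41.1%). For ELF7 over S2P and SPT16 over S5P it was 3 of 5 (60.0%, against 39.0%). The counts between lists are small too, with no interval or test.

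Summits lay mostly in the body of the genes. Of the 76 summits at these genes, 65 lay inside (85.5%), against 77.4% for all genes, and the 11 outside belonged to PSBO2, PSBW, PSAD2, PSAH2 and PETE1. These shares pool 8 lists of unequal weight, and SPT5 over S5P (37.9% inside over all genes) gave 1 summit here. By list, strongest summits lay inside less often for SSRP1 over S2P (87.0%, against 90.6% over all genes) and S5P (72.7%, against 83.3%). They lay inside more often for SPT16 over S2P (94.1%, against 89.1%) and S5P (75.0%, against 65.8%) and ELF7 over S2P (100%, against 95.1%). PSBW and PSAD2 had none inside. PSAH2 for SSRP1 over S5P and PETE1 for SPT16 over S5P also had none inside. Counting summits inside genes alone gave SSRP1 over S2P at 21 genes (47.7%, against 17.4% of all genes), SPT16 over S2P at 16 (36.4%, against 18.9%), SSRP1 over S5P at 8 (18.2%, against 12.3%) and SPT16 over S5P at 6 (13.6%, against 17.3%). ELF7 over S2P stayed at 10 genes (22.7%, against 8.15%). Over S2P the strongest summits inside had a median distance to the nearest gene end of 488 bp (SSRP1), 542 bp (SPT16) and 532 bp (ELF7), against 468, 508 and 752 bp over all genes. As a fraction of the gene's length from its nearest end (0 at an end, 0.5 in the middle), the medians were 0.339, 0.378 and 0.404, against 0.231, 0.258 and 0.354. The smaller length of these genes moves with that fraction, and its part was not tested.

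Scores at the 44 genes were low within their lists. Over S2P the median strongest score was 4.61 (SSRP1), 3.30 (SPT16) and 2.77 (ELF7), against 7.18, 6.64 and 4.67 over all genes with a summit. Over S5P it was 3.37 for SSRP1 and 3.54 for SPT16, against 5.21 and 5.24. The number of these genes above the median score of the list was 7 of 23 (SSRP1), 3 of 17 (SPT16) and 3 of 10 (ELF7) over S2P, and 4 of 11 (SSRP1) and 2 of 8 (SPT16) over S5P. The highest were FNR2, PSBS and PETE1 in SSRP1 over S2P, FNR2, PSBQ1 and PETE1 in SPT16 over S2P, FNR2, PSAH2 and PSAD2 in SSRP1 over S5P, and FNR1, PSBW and PETE1 in SPT16 over S5P.

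**Figure D4:**
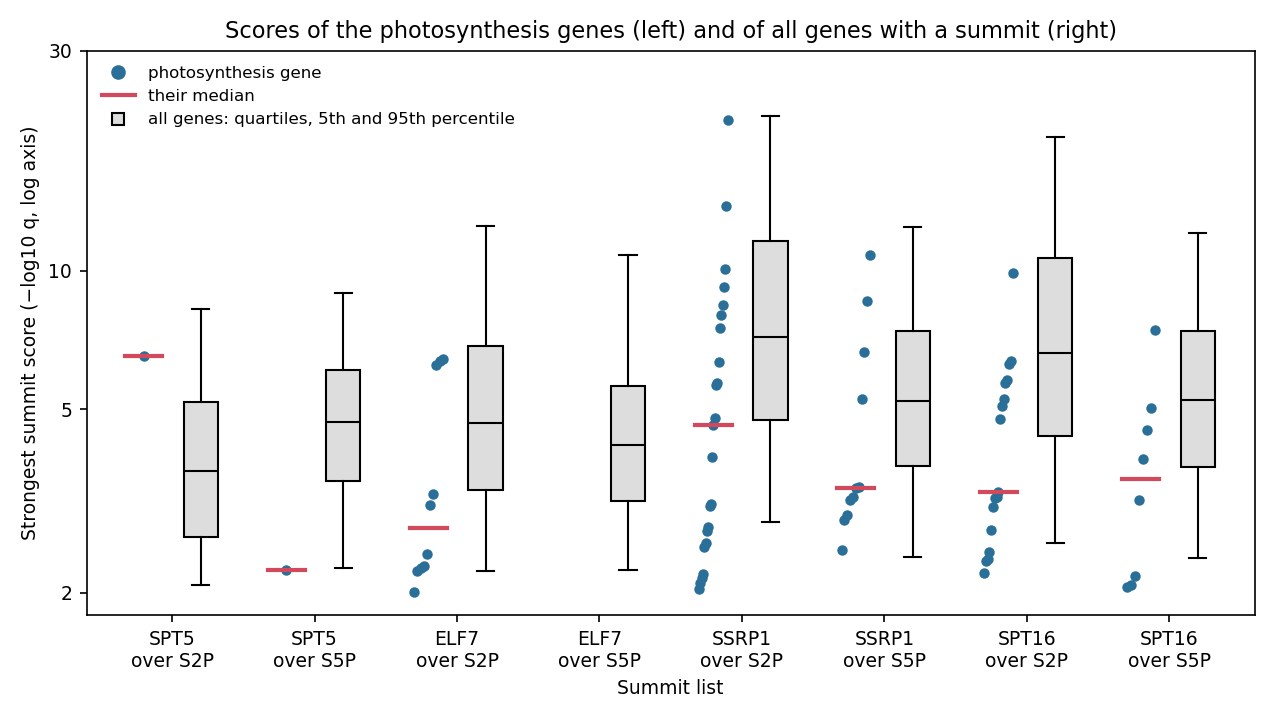
Scores (−log10 q) of the strongest summit at each of the 44 genes that has one, by list (points, with a red line at their median), beside all protein-coding genes with a summit in that list (boxes for the quartiles, line at the median, whiskers to the 5th and 95th percentile), on a log axis. In SSRP1, SPT16 and ELF7 over S2P the medians of these genes were 4.61, 3.30 and 2.77, below the medians of 7.18, 6.64 and 4.67 over all genes.

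Several pairs of genes for the same protein differed in the number of lists they were in, while LHCB1.1 to LHCB1.5 and LHCB2.1 to LHCB2.3 were alike in having no summit in the lists analysed for them. FNR2 was in 6 lists and FNR1 in 4, PETE1 in 4 and PETE2 in 1, and FD1 in 4 and FD2 in none. PSBO2 was in 4 lists and PSBO1 in 2, while PSAH1 and PSAH2 were in 5 and 4. Among related genes outside the 44, PSAE2, a second gene for PsaE, was in 5 lists where PSAE1 was in 2, and its SPT16 score over S2P of 13.9, rank 784 of 6578, was above every SPT16 score of the 44 genes. No replicate error is available for any of these contrasts.

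The other genes of the pathway were taken in lists written from textbook knowledge, with earlier results of these data known. SSRP1 and SPT16 over S2P also marked them often, against 19.1% (SSRP1) and 21.0% (SPT16) of all genes. SSRP1 over S2P had a summit at 6 of 9 other photosystem subunits, 6 of 8 other electron transport and ATP synthase genes, 6 of 9 thylakoid regulators, 10 of 14 chlorophyll synthesis genes and 16 of 22 Calvin cycle genes. SPT16 over S2P had one at 6, 5, 6, 10 and 15 of them in the same order. ELF7 over S2P, at 8.54% of all genes, varied more. It was at 5 of 9 other photosystem subunits (55.6%) and 8 of 14 chlorophyll synthesis genes (57.1%). Among Calvin cycle genes it was at 4 of 22 (18.2%, interval 5.19 to 40.3). It was at 1 of 8 other electron transport and ATP synthase genes (12.5%, interval 0.316 to 52.7) and 1 of 9 thylakoid regulators (11.1%, interval 0.281 to 48.2). All of these intervals hold the share of all genes. ELF7 over S5P had none in any of these lists, against 2.08% of all genes, which is near the background.

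The antenna-like genes outside the 44, LHCA5, LHCA6, LHCB4.3 and LHCB7, which in Arabidopsis are minor or rarely expressed members of the family, each had a summit in at least 1 list (4 of 4, interval 39.8 to 100), against 36.8% of all genes. SPT16 had a summit at 4 of 4 over S5P, against 24.2% of all genes, and at 3 of 4 over S2P (interval 19.4 to 99.4), against 21.0%. SSRP1 over S2P was at 2 of 4 (interval 6.76 to 93.2), against 19.1%, and these intervals over S2P hold the share of all genes. For LHCB4.3 and LHCB7 the summits lay outside the gene. LHCA6, which helps to link photosystem I to the NADH dehydrogenase-like complex, scored 19.0 in SSRP1 over S2P, rank 382 of 5451, where the 17 antenna genes reached 2.04. The highest scores of the other lists were 13.5 in SSRP1 over S2P for AT2G26500, 8.76 in SPT16 over S5P for TAP38, the phosphatase of LHCII, 15.6 in SPT16 over S2P for PORC, a light-dependent enzyme of chlorophyll synthesis, and 12.3 in SPT16 over S2P for SBPASE, an enzyme of the Calvin cycle.

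**Figure D5:**
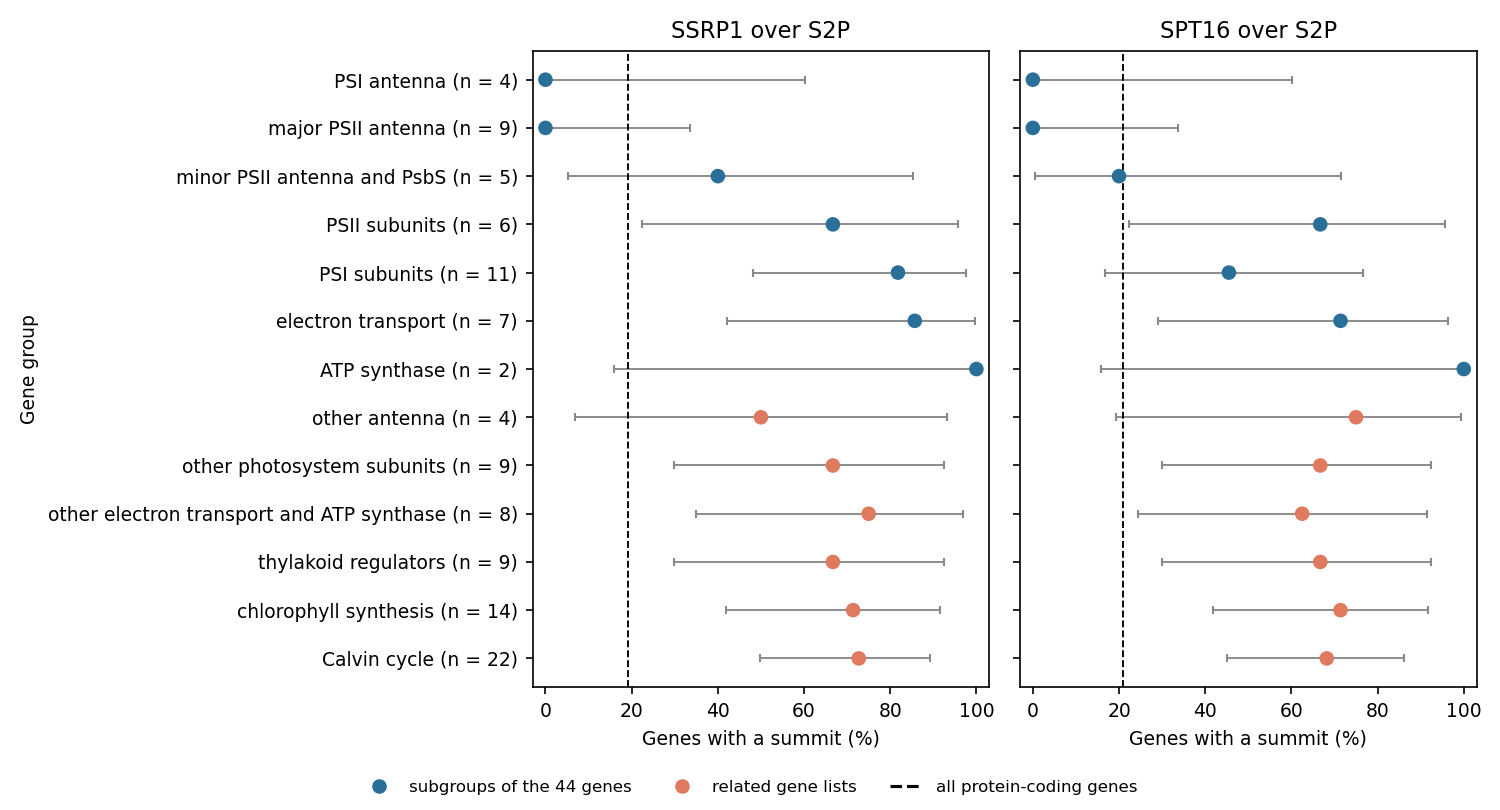
Share of genes (percent) with a summit of SSRP1 over S2P (left) and SPT16 over S2P (right) for the subgroups of the 44 genes and the related lists, with exact 95% intervals of counting error and a dashed line for all protein-coding genes. The photosystem I and major photosystem II antenna stand at 0% in both panels, and the Calvin cycle genes stand at 72.7% for SSRP1 and 68.2% for SPT16.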

How the data were processed

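ChIP-seq libraries were processed with Trimmomatic 0.39, Bowtie2, SAMtools 1.16.1, deepTools and MACS3 on TAIR10, per the submitters' processing notes; the sources used here give no other version, no setting, and neither the pooling of libraries nor the treatment of multiply mapped reads. The score deposited by the authors in each list is a −log10 q-value, and the lowest, 2.0, corresponds to q = 0.01.

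Summits were assigned to every protein-coding gene of the RefSeq TAIR10.1 table that held them or lay within 500 bp, and positions are counted from 1. No coordinate of that table is printed. To check the fit of the table to the lists, summits were shifted: 87.4% lay in protein-coding genes unshifted, and 77.7% and 77.8% after shifts of 500 bp to lower and to higher coordinates. Smaller shifts are not resolved by this. Distances from the gene start had been planned, but the table gives no strand, so distances to the nearest gene end were used. Counts, distances and Clopper-Pearson intervals were computed with Python 3.11.15, pandas 2.3.3, numpy 2.4.6 and scipy 1.17.1, and the assignment was tested on simulated data. Since no list has a column per library, no test, p-value or replicate error was possible.

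The members and lists were chosen with earlier results of these data known. Full values are given for genes in 4 or more lists, the 3 highest in each list, genes marked over S5P and not S2P, and near-identical copies; of each related list, the highest-scoring gene is named. Alternatives changed the window, the score threshold, the assignment, the background genes and the distance called shared.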

Additional observations from a re-analysis of the deposited data

How the results depend on the processing

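Each count was recomputed with other settings, and 97 of 142 recomputed values stayed close to the main value (for counts, within a factor of 1.5, and for shares and median distances, within the main value's interval). Some of the 97 could not move, such as the count of 0 for ELF7 over S5P under a stricter window or score. The score threshold gave most of the values that did not stay close. With scores of at least 5, 3 genes remained for ELF7 over S2P, 10 (S2P) and 4 (S5P) for SSRP1, 7 (S2P) and 2 (S5P) for SPT16, and 0 for SPT5 over S5P; in any list 14 genes remained, all 14 of them outside the antenna and 0 in it. With scores of at least 10 these became 0 for ELF7, 3 and 1 for SSRP1, 0 and 0 for SPT16, 0 for SPT5 over either form, and 3 in any list, all 3 outside the antenna and 0 in it. Genes over S2P and not S5P with scores of at least 5 and 10 were 3 and 0 for ELF7 and 6 and 2 for SSRP1, and with at least 10 they were 0 for SPT16 and 0 for SPT5. Genes over both forms were 4 and 1 for SSRP1 and 1 and 0 for SPT16, and genes over S5P and not S2P were 0 and 0 for SPT5 and, with at least 5, 1 for SPT16.

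A window of 1000 bp gave 2 genes for SPT5 over S2P, and windows of 250 and 0 bp gave 0 for SPT5 over S5P, also over S5P and not S2P. Among genes of the same length range, the background shares were 14.8% for SPT5 over S5P, 9.46% for ELF7 over S2P, 20.7% and 15.2% for SSRP1 over S2P and S5P, and 22.6% for SPT16 over S2P. Summits of SSRP1 over S2P and SPT16 over S5P lay within 100 bp at 1 gene and within 500 bp at 6, those of SPT16 over S2P and SSRP1 over S5P within 500 bp at 6, and those of ELF7 over S2P and SPT16 over S5P within 100 bp at 1. These follow from stricter or wider limits on the same summits. Leaving out genes at skipped peak numbers, chosen after seeing the data, moved none of the 8 background shares beyond its interval.

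No paired analysis was possible because the lists hold no column per library, and for the same reason no replicate was left out. Depth is unknown, and with it the precision of a low score.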
